A study of Mus musculus with 12 samples.

Results

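The enteric nervous system is a network of neurons and glia inside the gut wall that steers movement, secretion and blood flow. Its neurons signal with peptides, nitric oxide and acetylcholine, and its glia support them. Interstitial cells of Cajal, marked by the receptor Kit, pace the muscle through the chloride channel Ano1. The 30 genes described here were taken as markers of these cells: 25 of neurons, 3 of glia and 2 of the pacemaker cells. The deposited table holds 22377 genes, and whether other cells of the colon also express the 30 was not tested. All 30 were chosen by name, with earlier results of these data known.

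The series sequenced RNA from mouse colon in 12 libraries, 4 labelled FGF1, 4 labelled DSS and 4 labelled control. FGF1 is fibroblast growth factor 1, and DSS is dextran sulfate sodium, a polymer that injures the colon lining. The labels give no dose, time, strain, age or genotype, do not state whether DSS was also given to the FGF1 mice, and do not say that the libraries of a group came from separate animals. The p-values below therefore measure the spread between these libraries, which may be technical. In bulk tissue, fewer cells of a type and less RNA per cell cannot be told apart.

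All levels are FPKM, fragments scaled for transcript length and library total, summed over the listed transcripts of a gene. Between 11190 and 12721 genes reached 1 FPKM in a library, and DSS replicate 3 listed the fewest transcripts (45795) while control replicate 3 listed the most (54313). Of the 30 genes, 27 reached 1 FPKM in at least 4 libraries and were tested. The others, Npy, Chat and Elavl3, were too low. Tests used limma on log2(FPKM + 1) with Benjamini-Hochberg adjustment over 12578 genes, and an adjusted p under 0.05 made a call.

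The sequences shown are the stretches upstream of a start of 4 of the 6 genes called in DSS libraries, and the spliced pieces that separate the forms of Tac1 and Kit. No call rests on them. The upstream stretches are the 250 bases before the RefSeq start on GRCm38.p6, 5′ to 3′, with capitals marking TGACG or its reverse complement CGTCA, the core of the cyclic AMP response element. Vip lies at chr10:5638968-5639217 on the plus strand, Cartpt at chr13:99900684-99900933, Scg3 at chr9:75684057-75684306 and Ano1 at chr7:144738574-144738823, all 3 on the minus strand. The Cartpt and Ano1 stretches lie inside the genes as GENCODE vM21 places them, which reach upstream to 99901091 and 144751974.
Vip: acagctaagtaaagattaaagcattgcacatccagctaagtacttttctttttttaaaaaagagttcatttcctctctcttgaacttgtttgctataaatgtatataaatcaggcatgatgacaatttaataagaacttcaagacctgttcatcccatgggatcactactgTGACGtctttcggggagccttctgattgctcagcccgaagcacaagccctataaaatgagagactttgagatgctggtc
Cartpt: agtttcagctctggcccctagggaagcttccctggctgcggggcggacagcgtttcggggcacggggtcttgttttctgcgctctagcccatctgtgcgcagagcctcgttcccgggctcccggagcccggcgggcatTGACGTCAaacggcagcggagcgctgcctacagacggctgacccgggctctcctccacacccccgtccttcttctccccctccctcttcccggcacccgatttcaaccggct
Scg3: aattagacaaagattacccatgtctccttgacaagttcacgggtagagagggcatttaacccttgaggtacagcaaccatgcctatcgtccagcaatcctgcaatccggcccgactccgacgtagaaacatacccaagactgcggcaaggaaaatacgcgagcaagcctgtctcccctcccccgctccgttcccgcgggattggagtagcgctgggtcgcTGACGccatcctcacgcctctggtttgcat
Ano1: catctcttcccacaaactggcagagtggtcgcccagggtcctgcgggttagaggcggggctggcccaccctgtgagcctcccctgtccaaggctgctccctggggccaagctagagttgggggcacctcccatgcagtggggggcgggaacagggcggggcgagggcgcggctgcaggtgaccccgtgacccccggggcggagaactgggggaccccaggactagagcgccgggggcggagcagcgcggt

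TGACG, read on both strands, stood in the stretches of Vip, Cartpt and Scg3 and not in that of Ano1. Of the other called genes, Syt1 had stretches at 2 starts, not printed because neither held the letters, and Nefl had none in the table, so 3 of the 5 called genes with a stretch held TGACG. Of the 30 genes, 22 had a stretch in the RefSeq table and 9 of these held it: Cartpt, Chat, Elavl4, Hand2, Nos1, Scg2, Scg3, Tac1 and Vip. Counted by stretch, it stood in 11 of the 29 stretches of these genes and in 17.8% of all 32851 stretches of that length. The full palindrome TGACGTCA, which contains TGACG, was in Cartpt and Scg2 and in 1.55% of all stretches. Another 3 motifs were also searched: TGACGTCT was in Vip and 0.451% of all stretches, TGACGCA in Nos1 and Tac1 and 1.75%, and TTCAGCACC in none of the 22 genes and 0.301%. These motifs were chosen with the sequences in view, and a match is only a match of letters.

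Of the 5 peptide and transmitter enzyme genes tested, 2 were called lower in DSS libraries, Vip and Cartpt. Vip encodes vasoactive intestinal peptide, a transmitter that relaxes gut muscle and drives secretion. It stood at 6.55, 3.09, 11.1 and 5.07 FPKM in FGF1 libraries, 5.26, 5.80, 1.94 and 2.08 in DSS libraries, and 15.6, 23.7, 36.0 and 22.2 in control libraries. Every DSS and every FGF1 library lay below every control library. DSS against control gave a log2 fold change of -2.46 ± 0.37 (SE) with an adjusted p of 0.00368. Across the 27 genes, 6 were called lower and none higher (22.2% lower), against 12.3% of all tested genes called in either direction, 10.1% called lower and 2.23% called higher. Without control replicate 3 or 4, or without DSS replicate 3 or 4, 2 of the 27 were called, Vip and Ano1. In those fits 5.56% to 6.59% of all tested genes were called in either direction. Without FGF1 replicate 2, 3 of the 27 were called, against 9.71% of all tested genes.

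Cartpt, which encodes the neuropeptide CART, was the other peptide gene called. Its levels were 2.98, 1.73, 2.10 and 1.89 FPKM in FGF1 libraries, 2.96, 1.85, 0.526 and 1.76 in DSS libraries and 3.91, 2.79, 4.08 and 5.02 in control libraries. DSS replicate 1 reached into the control range, and the log2 fold change in DSS was -0.90 ± 0.26 with an adjusted p of 0.0415. Tac1, which encodes substance P and neurokinin A, averaged 16.9 ± 4.84 FPKM in FGF1, 16.3 ± 11.7 in DSS and 32.7 ± 10.7 in control libraries (SD, n = 4 each), with an adjusted p of 0.0817 in DSS against control. Galanin (Gal) averaged 12.5 ± 7.62, 9.91 ± 3.99 and 16.9 ± 6.10 FPKM in the FGF1, DSS and control groups, and its groups overlapped. Nos1, the neuronal nitric oxide synthase, averaged 1.51 ± 0.705, 1.11 ± 0.878 and 2.62 ± 1.54 FPKM in the same order, with no call. Npy was listed at 0 in all FGF1 and DSS libraries and at 0, 0.331, 0.774 and 0.161 FPKM in control libraries. Chat, which makes acetylcholine, stayed below 1 FPKM throughout, from 0.129 to 0.289 in FGF1, 0.102 to 0.432 in DSS and 0.367 to 0.792 in control libraries.

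**Figure D1:**
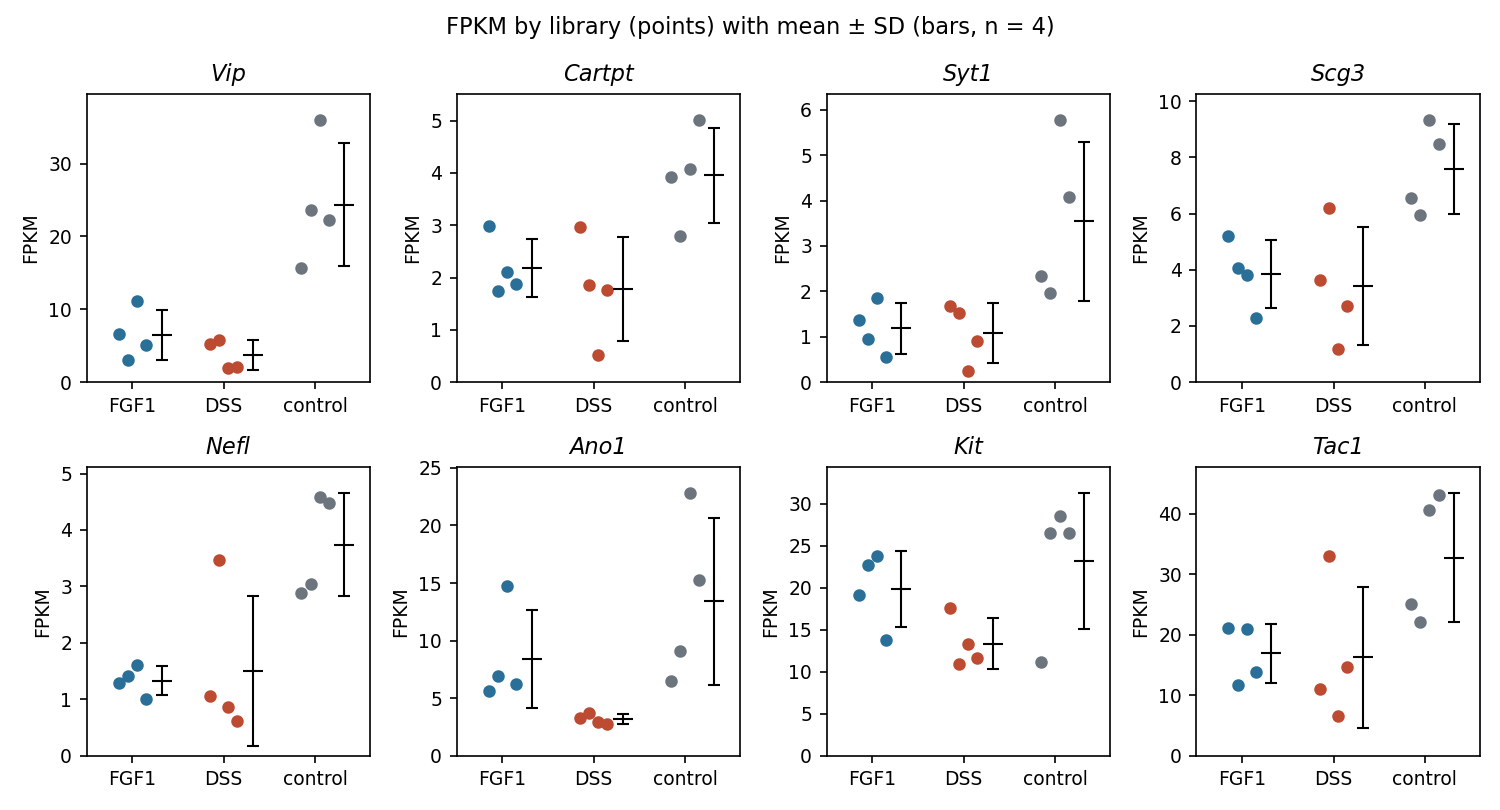
FPKM of 8 genes in each library (points, n = 4 per group) with mean ± SD beside them, for FGF1, DSS and control. All DSS and FGF1 libraries lie below all control libraries for Vip, and all DSS libraries lie below all others for Ano1.

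Of the 6 genes of vesicles, granules and the membrane, 2 were called lower in DSS libraries, Syt1 and Scg3. Syt1, the calcium sensor of transmitter release, stood at 1.38, 0.951, 1.86 and 0.559 FPKM in FGF1 libraries, 1.68, 1.52, 0.236 and 0.906 in DSS libraries and 2.34, 1.97, 5.78 and 4.07 in control libraries. DSS and control did not overlap, and the log2 fold change was -1.10 ± 0.31 with an adjusted p of 0.0390. Scg3, a granin of dense-core granules, stood at 5.22, 4.05, 3.81 and 2.27 FPKM in FGF1 libraries, 3.63, 6.20, 1.19 and 2.72 in DSS libraries and 6.57, 5.96, 9.34 and 8.49 in control libraries. It had a log2 fold change of -1.06 ± 0.31 in DSS with an adjusted p of 0.0463, and DSS replicate 2 lay inside the control range. Scg2, another granin, averaged 6.50 ± 2.67 FPKM in FGF1, 5.42 ± 3.14 in DSS and 15.8 ± 8.05 in control libraries and missed the call (-1.42 ± 0.44, adjusted p = 0.0546), although DSS and control did not overlap. Snap25, a fusion protein of vesicles, Rtn1, a reticulon of the endoplasmic reticulum, and the adhesion protein Ncam1 had log2 fold changes of -0.93, -0.66 and -0.75 in DSS and were not called.

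Of the 9 cytoskeleton, growth and RNA-binding genes tested, 1 was called, lower in DSS libraries. Nefl, the light neurofilament, stood at 1.28, 1.40, 1.61 and 0.999 FPKM in FGF1 libraries, 1.05, 3.48, 0.863 and 0.621 in DSS libraries and 2.88, 3.03, 4.58 and 4.47 in control libraries. DSS replicate 2 stood apart at 3.48 FPKM and the log2 fold change in DSS was -1.03 ± 0.28 (adjusted p = 0.0324). Its neighbour Nefm lies on the opposite strand, and listed transcripts of Nefl and Nefm share 1108 exon bases. Strand use is not given, so reads from those bases may have counted for either gene. The only listed Nefm transcript with those bases, Nefm-202, reached at most 0.0785 FPKM. Nefm had -0.69 ± 0.22 with an adjusted p of 0.0561. The tubulin Tubb3, the microtubule regulators Stmn2 and Stmn3, peripherin (Prph), the growth protein Gap43 and the RNA-binding protein Elavl4 had log2 fold changes of -1.08, -0.91, -0.74, -0.88, -0.99 and -0.82, none called. Uchl1, a ubiquitin hydrolase abundant in neurons, was the exception at 0.03 ± 0.84 (adjusted p = 0.987), and Elavl3 stayed under 1 FPKM in all libraries. Uchl1, Nos1, Hand2 and Ncam1 also share exon bases with a gene on the opposite strand in GENCODE vM21: 244 for Uchl1, 268 for Nos1, 461 for Hand2 and at most 417 for any transcript of Ncam1.

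The receptor Ret, which binds neurotrophic factors of the GDNF family, and the transcription factor Hand2 had log2 fold changes of -1.12 ± 0.35 (adjusted p = 0.0542) and -1.17 ± 0.45 (adjusted p = 0.112) in DSS. Neither was called. The glial genes S100b, Sox10 and Gfap, a calcium-binding protein, a crest transcription factor and a glial filament, had log2 fold changes of -0.53, -0.86 and -0.72, with adjusted p-values of 0.179, 0.0829 and 0.221. Gfap averaged 2.28 ± 1.03 FPKM in FGF1, 2.18 ± 1.58 in DSS and 3.82 ± 1.16 in control libraries, with overlapping groups. No glial gene passed in any comparison of the main fit. In DSS against control, Sox10 was called in 1 of 21 alternative settings (lowest limma adjusted p = 0.0442).

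Of the pacemaker genes, Ano1 was called in the main fit of DSS against control and Kit was not. Ano1 stood at 5.66, 6.94, 14.8 and 6.25 FPKM in FGF1 libraries, 3.31, 3.74, 2.92 and 2.71 in DSS libraries and 6.51, 9.08, 22.8 and 15.3 in control libraries. DSS libraries lay below all others, and DSS against control gave -1.66 ± 0.34 with an adjusted p of 0.0112. Kit stood at 19.1, 22.6, 23.8 and 13.7 FPKM in FGF1 libraries, 17.6, 10.9, 13.2 and 11.6 in DSS libraries and 11.2, 26.5, 28.5 and 26.5 in control libraries, and its log2 fold change in DSS was -0.69 ± 0.27 (adjusted p = 0.120). Control replicate 1 was as low as the DSS libraries. Without it, the log2 fold change of Kit was -0.997. Kit was called in 1 of 22 alternative settings (lowest limma adjusted p = 0.0138). Mast cells carry Kit as well, and the 11 mast cell markers summed to 1.03 to 4.36 FPKM in FGF1, 0.686 to 2.33 in DSS and 0.502 to 1.08 in control libraries. These markers were low: 9 of the 11 stayed under 1 FPKM in all libraries, and none reached the level needed for testing.

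**Figure D2:**
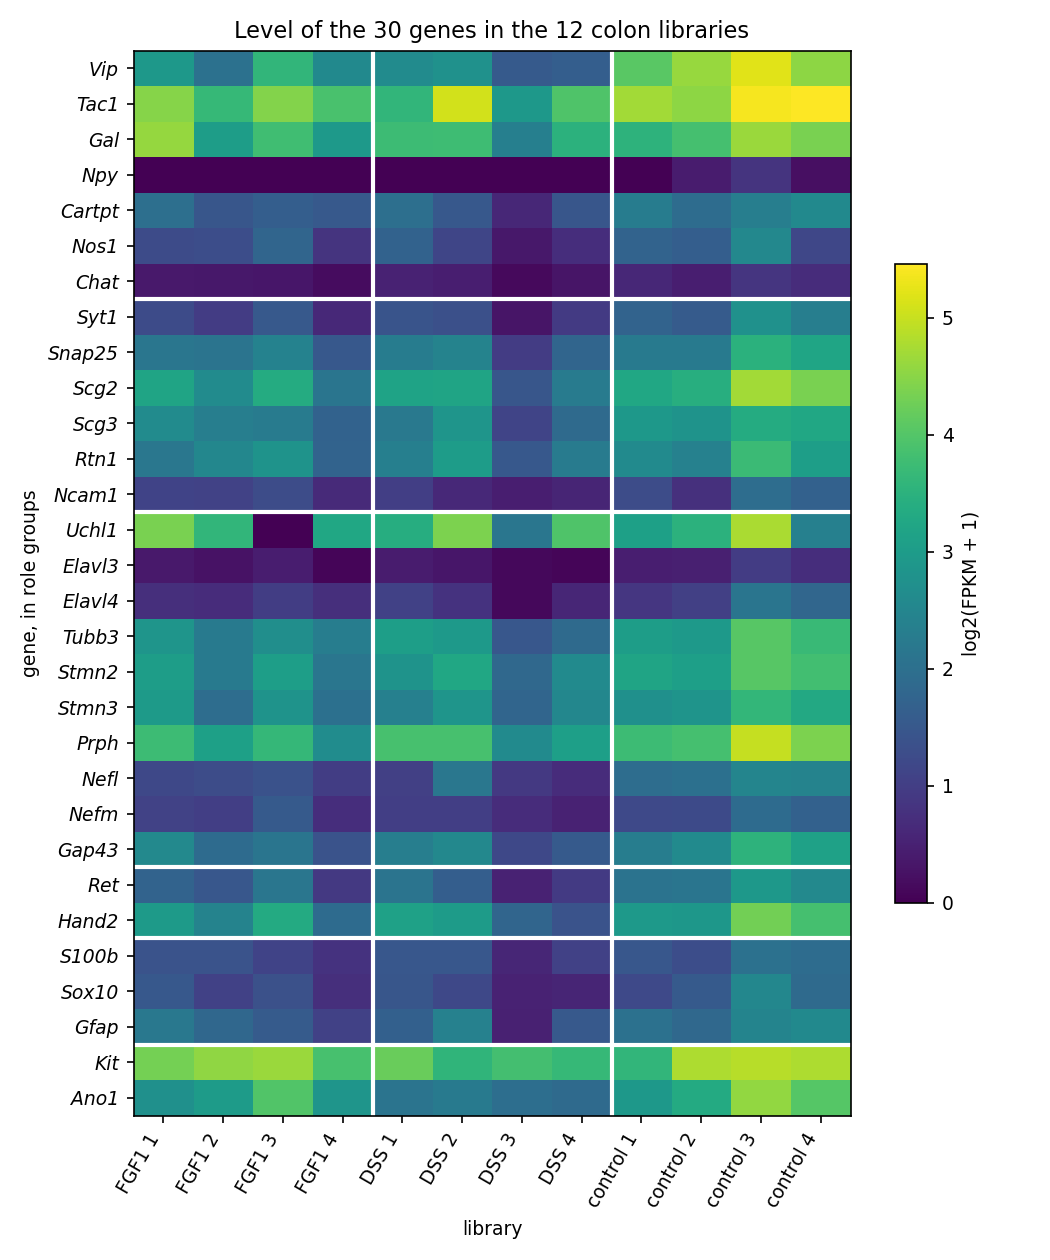
Level of each of the 30 genes as log2(FPKM + 1) (colour) in each library, with FGF1, DSS and control side by side and white lines between role groups. Control replicate 3 was the highest control in 27 of the 30 genes, and DSS replicate 3 the lowest DSS library in 23.

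**Figure D3:**
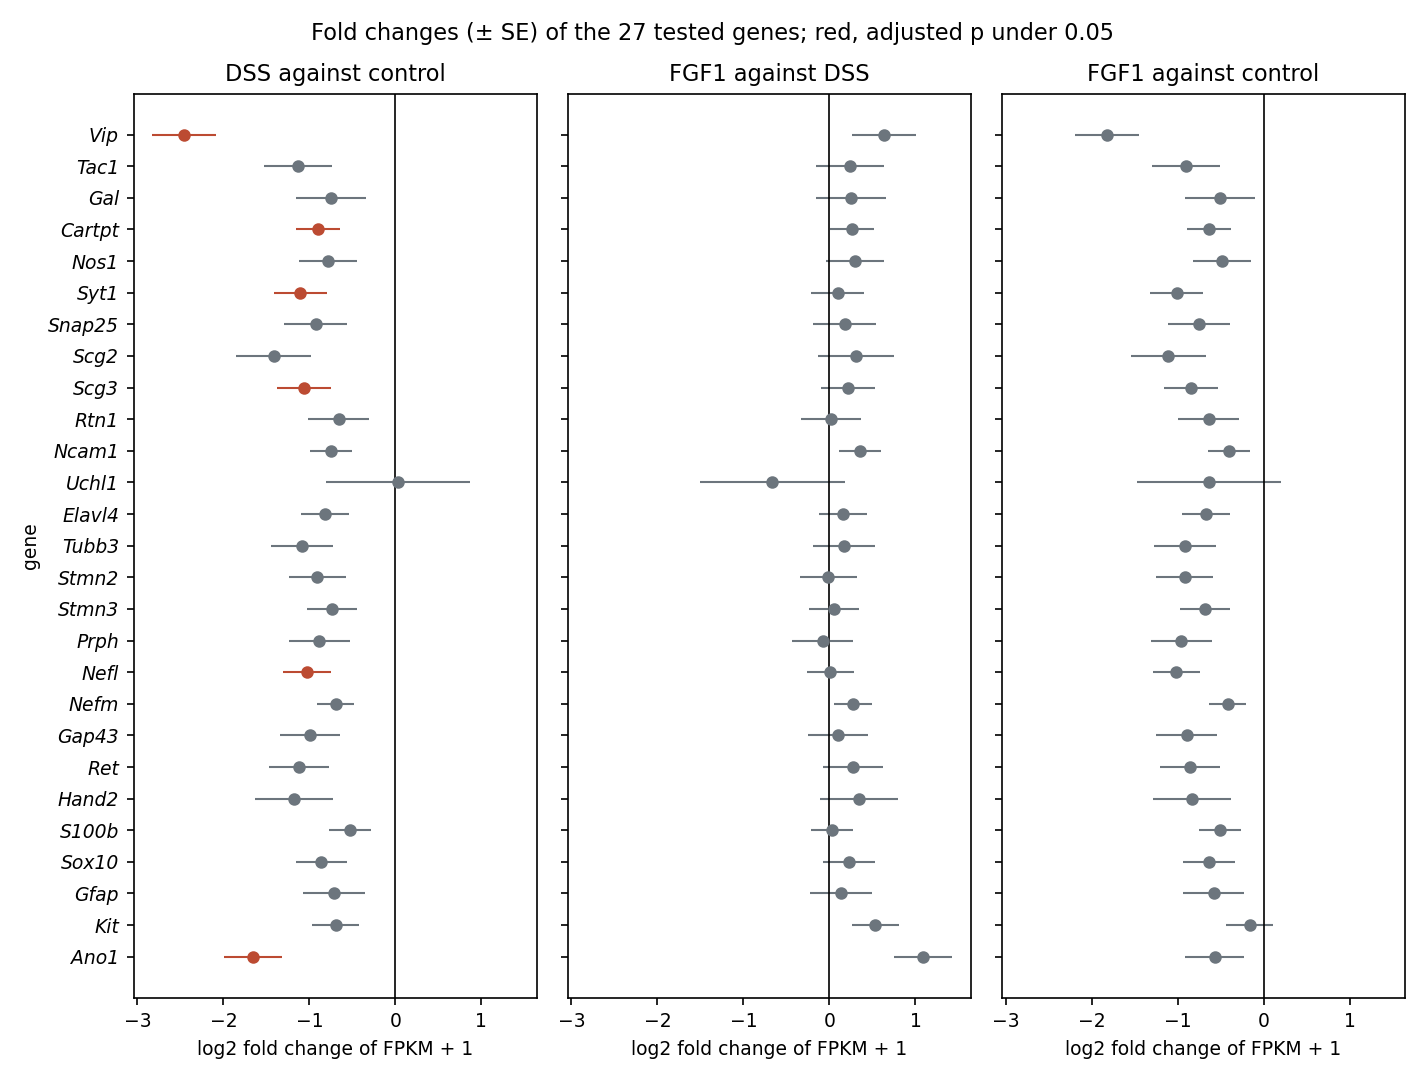
Log2 fold change of FPKM + 1 with its SE for the 27 tested genes in the 3 comparisons, red where the adjusted p was under 0.05. In DSS against control, 26 of 27 lie below 0; in FGF1 against DSS 24 lie above 0 but none is called; in FGF1 against control all lie below 0 and none is called.

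The libraries inside a group differed widely in level. DSS replicate 3 was the lowest of its group for 23 genes, and control replicate 3 the highest of its group for 27. In DSS against control, 26 of 27 tested genes had a log2 fold change below 0, against 59.7% of all tested genes, and their median was -0.90 against -0.07 over all genes. Only Uchl1 lay above 0. In 5 of the 27 genes the 2 groups did not overlap, all lower in DSS (Vip, Syt1, Scg2, Nefm and Ano1), against 16.9% of all tested genes without overlap in either direction, 13.3% lower in DSS and 3.67% higher.

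FGF1 against DSS called none of the 27 genes with limma, against 0.0557% of all tested genes, 0.0159% lower and 0.0398% higher. Ano1 alone had an unadjusted p under 0.05, at 1.09 ± 0.34 (adjusted p = 0.226), and it was also the only gene whose groups did not overlap, higher in FGF1, against 6.28% of all tested genes in either direction, 4.45% higher and 1.83% lower. Vip and Kit had log2 fold changes of 0.64 ± 0.37 and 0.53 ± 0.27, with adjusted p-values of 0.514 and 0.462. Uchl1 had the lowest, at -0.67 ± 0.84. Of the 27, 3 lay below 0, against 41.3% of all tested genes, and 24 above it, with a median of 0.22 against 0.05 over all genes, but 24 of the 27 changed sign in at least 1 of the alternative settings tried. The median itself was -0.08 without DSS replicate 3, -0.29 without DSS 3 and DSS 4, and -0.26 with the smooth muscle level as a covariate. DSS libraries serve in both this comparison and the one against control, so the 2 are not independent.

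FGF1 against control also called none of the 27 genes with limma, against 0.0795% of all tested genes (0.0716% lower and 0.00795% higher). An unadjusted limma p under 0.05 was reached by 14 genes, all lower in FGF1, and by 23 in DSS against control, all lower in DSS. The share of all tested genes under that threshold was not counted for any comparison, so these counts cannot be set against a background. Vip had -1.82 ± 0.37 with an adjusted p of 0.0889. Nefl, Syt1 and Scg3 had -1.01, -1.01 and -0.85, with adjusted p-values of 0.155, 0.186 and 0.254. In 7 genes (Vip, Tac1, Syt1, Scg3, Tubb3, Stmn2 and Nefl) every FGF1 library lay below every control library, against 10.3% of all tested genes without overlap, 6.61% lower in FGF1 and 3.66% higher. All 27 log2 fold changes were below 0, against 57.5% of all tested genes, with a median of -0.68 against -0.04 over all genes. Kit was nearest to 0, at -0.16 ± 0.27. The same control libraries serve here and in DSS against control, so these comparisons are not independent of each other.

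Within each library, Vip was also set against the summed FPKM of 9 genes taken as pan-neuronal (Uchl1, Elavl3, Elavl4, Tubb3, Stmn2, Stmn3, Prph, Snap25 and Syt1). Vip came to 11.2%, 9.08%, 29.3% and 18.5% of that sum in FGF1 libraries, 10.98%, 9.35%, 11.6% and 5.42% in DSS libraries and 32.4%, 46.1%, 30.1% and 30.2% in control libraries. All FGF1 and DSS libraries lay below all control libraries. Tac1 came to 44.2 ± 10.6% in FGF1, 38.3 ± 12.4% in DSS and 46.9 ± 10.7% in control libraries, and Gal to 29.9 ± 8.48%, 24.5 ± 2.97% and 23.7 ± 3.17% in the same order, and both overlapped between groups. Cartpt came to 5.66 ± 0.840% in FGF1, 4.22 ± 1.496% in DSS and 5.94 ± 2.01% in control libraries, again with overlap. No test was made of these ratios.

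**Figure D4:**
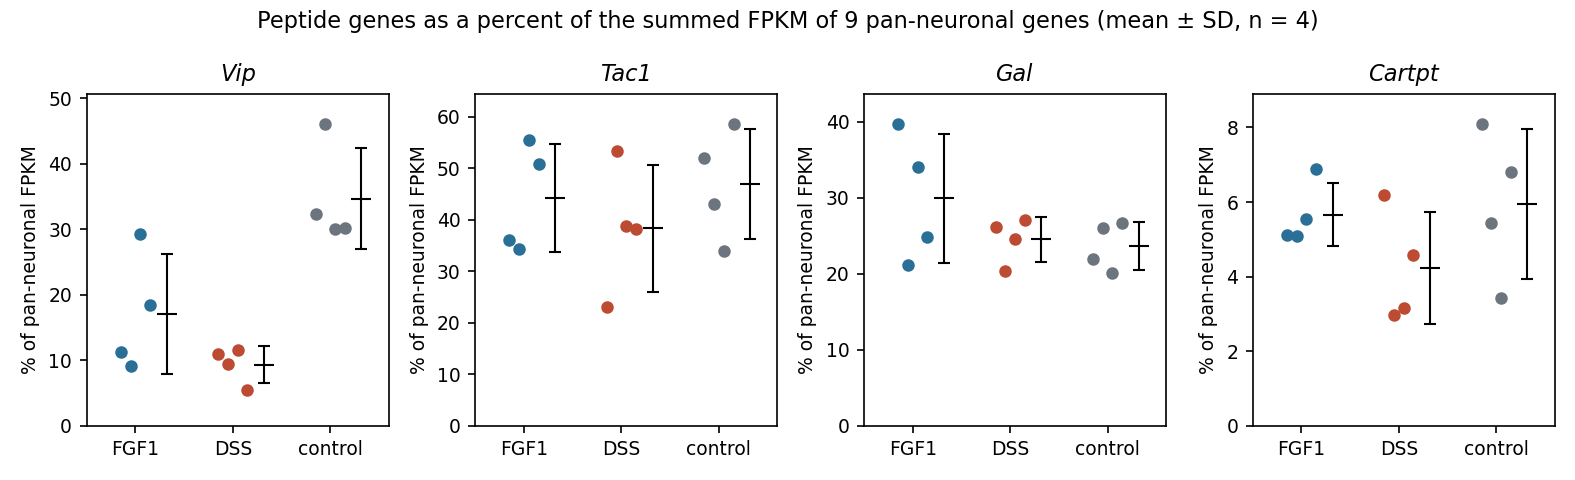
Each peptide gene's FPKM as a percent of the summed FPKM of the 9 pan-neuronal genes in each library (points, with mean ± SD, n = 4). Vip in FGF1 and DSS libraries lies below all control libraries, while Tac1, Gal and Cartpt overlap between groups.

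The forms of the transcripts differed between libraries. The files list 90 transcripts of the 30 genes, 89 of them in the GENCODE vM21 annotation of GRCm38 and 1, of Ano1, outside it. Tac1 transcripts that skip a 45-base coding exon, shown with the exon that another form skips, made up 64.0 ± 7.02% of its coding FPKM in FGF1, 61.2 ± 5.11% in DSS and 65.4 ± 4.05% in control libraries.
Exon skipped in that form, chr6:7557216-7557260, plus strand: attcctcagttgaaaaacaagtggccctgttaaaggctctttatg
Exon skipped in the rarer form, chr6:7559099-7559152, plus strand: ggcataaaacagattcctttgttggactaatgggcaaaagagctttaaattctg
Shares overlapped between groups. The form that skips the 54-base exon was listed at 4.63 FPKM in DSS replicate 2, 1.899 in control replicate 2 and 10.2 in control replicate 4, and at 0 in the others.

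Kit has coding forms that differ by 12 bases at the end of exon 9, shown in capitals, which lengthen the receptor just outside the membrane.
Longer Kit form, chr5:75639117-75639158, plus strand: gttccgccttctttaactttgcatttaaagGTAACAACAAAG
Shorter Kit form, chr5:75639117-75639146, plus strand: gttccgccttctttaactttgcatttaaag
The longer form made up 2.76% to 53.3% of the FPKM of the 2 forms in FGF1, 5.64% to 51.6% in 3 DSS libraries and all of it in DSS replicate 4, and 10.1% to 49.4% in control libraries, so the groups overlapped. Retained-intron transcripts made up 53.4 ± 13.8% of the listed Kit FPKM in FGF1, 58.7 ± 18.5% in DSS and 44.8 ± 14.8% in control libraries. The Ano1 transcript outside the annotation was listed at 5.19 to 10.6 FPKM in FGF1, 1.32 to 2.92 in DSS and 5.30, 7.199, 0.690 and 12.3 in control libraries. In control replicate 3, an annotated coding transcript was listed at 19.1 FPKM. Uchl1 was listed as a coding transcript in all control libraries and in DSS replicates 1 and 3, as retained-intron transcripts in FGF1 replicates 1, 2 and 4 and DSS replicates 2 and 4, and at 0.0011 FPKM in FGF1 replicate 3. Syt1 was listed mainly as one coding transcript in DSS replicates 1 and 2 and control replicates 3 and 4, and as another in the other libraries.

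Further genes of these cells were read from lists of names. Of 34 tested further neuron genes, 14 were called lower in DSS libraries and none higher, against 10.1% of all tested genes called lower and 2.23% higher. Among the 14 were Sst (-1.63 ± 0.39, adjusted p = 0.0208), which encodes somatostatin, and the calcium-binding protein Calb2 (-1.25 ± 0.32, adjusted p = 0.0279). Dpysl3 and Map1b, which act on microtubules, had -1.18 and -1.15. Of 12 further glia genes, 3 were called lower (Cryab, Apoe and Scn7a, at -1.56, -1.27 and -0.83), and Apoe is also made by macrophages. Of 13 further pacemaker and PDGFRA cell genes, 7 were called lower, led by the receptor Pdgfra (-1.92), the gap junction genes Gja1 (-1.57) and Gjc1 (-1.22), and the calcium channel Cacna1h (-1.19). Of 13 receptors and targets of the transmitters, 4 were called lower: both subunits of soluble guanylate cyclase, the receptor of nitric oxide (Gucy1b1 at -1.59 and Gucy1a1 at -1.47), its kinase Prkg1 (-0.99) and the VIP receptor Vipr2 (-0.74). Of 8 trophic factors, 3 were called lower: Bmp4 (-1.17), Ntf3 (-1.01) and Kitl (-0.56), the ligand of Kit. Pdgfra is also among the fibroblast markers given below, and Prkg1 and Kitl are each counted in 2 of these lists. Of the 18 genes named here, all lost their call with the smooth muscle level as a covariate, 16 without DSS 3 and DSS 4, and 11 without DSS replicate 3. Cryab, Dpysl3 and Bmp4 lost it in 14, 15 and 15 of the 21 or 22 alternatives, and Scn7a, Gucy1a1, Cacna1h, Calb2, Map1b and Kitl in 9 to 11. None of these lists had a called gene in FGF1 against DSS or FGF1 against control.

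For those 2 comparisons the 2 most abundant genes of each list are given. Vamp2, a vesicle protein, averaged 56.8 ± 9.28 FPKM in FGF1, 49.2 ± 7.76 in DSS and 54.6 ± 14.4 in control libraries, and Sst 27.6 ± 14.7, 25.2 ± 12.9 and 75.1 ± 20.7 in the same order. Apoe averaged 60.001 ± 10.6, 37.4 ± 9.32 and 91.1 ± 17.2 FPKM, and the receptor Erbb3 48.2 ± 8.38, 54.04 ± 19.1 and 43.8 ± 10.02. The ion transporter Slc12a2 averaged 52.2 ± 5.80, 50.7 ± 12.9 and 45.8 ± 5.74 FPKM, and the adrenergic receptor Adra2a 21.1 ± 8.68, 32.3 ± 11.9 and 18.2 ± 7.59. The VIP receptor Vipr1 averaged 49.0 ± 5.05, 49.7 ± 8.49 and 39.8 ± 3.05 FPKM, and the peptidase Dpp4 4.85 ± 0.228, 7.53 ± 3.13 and 6.07 ± 0.788. Ece1, which processes endothelins, averaged 25.9 ± 1.37, 25.1 ± 3.21 and 30.02 ± 1.80 FPKM, and Kitl 17.4 ± 1.45, 13.1 ± 2.69 and 19.5 ± 2.54. Many of these genes are also expressed outside the nervous system.

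Markers of other cells of the gut wall were read too, with 10.1% of all tested genes called lower in DSS libraries and 2.23% higher. Smooth muscle markers summed to 1845 to 10029 FPKM in FGF1, 1061 to 3087 in DSS and 3853 to 11767 in control libraries, with 5 of 17 tested called lower in DSS and a median log2 fold change of -1.81. Fibroblast markers summed to 167 to 415 FPKM in FGF1, 30.8 to 184 in DSS and 437 to 636 in control libraries, with 14 of 15 called lower. Endothelial markers had 9 of 10 called lower, and enteroendocrine markers, which include Sst, 3 of 12. Enteroendocrine sums overlapped, at 168 to 294 FPKM in DSS and 258 to 409 in control libraries. Adipocyte markers had 0 of 10 called, with sums of 73.2 to 269 FPKM in FGF1, 79.5 to 164 in DSS and 120 to 525 in control libraries. The 1 mesothelium marker tested was not called. Epithelial markers summed to 7369 to 9344 FPKM in FGF1, 7188 to 9080 in DSS and 6651 to 7303 in control libraries. Of the 11 tested, 1 was called higher in DSS against control and none lower. With the smooth muscle level as a covariate, none of the 27 genes was called in DSS against control, and the median of the 27 was -0.18. Over all 12578 tested genes, 29 (0.231%) were called with the covariate, against 1549 without it. The log2 fold changes of Vip and Ano1 were then -1.58 and -0.81, with adjusted p-values of 0.0807 and 0.257. The muscle sums of DSS and control libraries did not overlap, so the covariate follows the group. This fit therefore cannot tell muscle content apart from the difference between the groups. The part of muscle, fibroblast and epithelial content in the results was not tested.

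**Figure D5:**
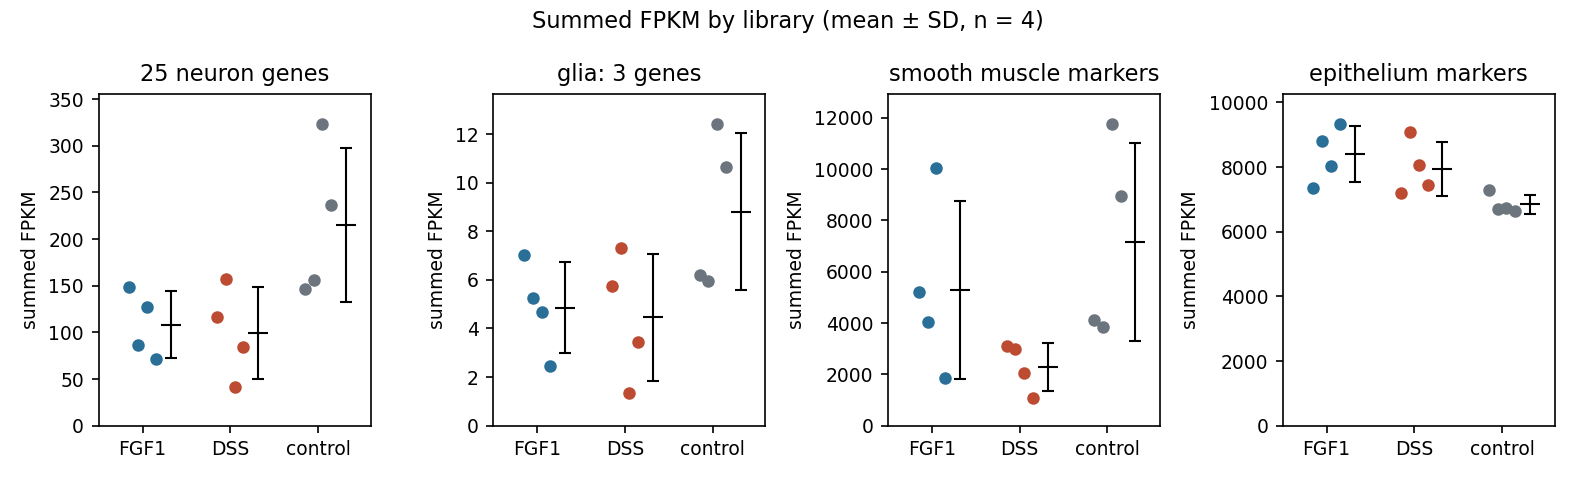
Summed FPKM of the 25 neuron genes, the 3 glia genes, the smooth muscle markers and the epithelium markers in each library (points, with mean ± SD, n = 4). The neuron sum is 71.4 to 148 in FGF1, 41.0 to 157 in DSS and 146 to 324 in control libraries.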

How the data were processed

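RNA from 12 mouse colon samples was sequenced. Per the submitters' processing notes, cutadapt 1.9, HISAT2 2.0.4, StringTie 1.3.4d and edgeR were used with GRCm38. The authors deposited FPKM values per transcript and structure event, with no counts, so depth and counting error are unknown. Only 39.1% to 47.2% of the lowest values were within 0.05 of whole multiples of a read, so no count model was used. Strand use is not given in the sources used here. A gene's value is the sum of FPKM over its listed transcripts. limma 3.58.1 in R 4.3.3 was fitted to log2(FPKM + 1) of all 12 libraries, with a mean-variance trend, two-sided, over genes with at least 1 FPKM in at least 4 libraries. Errors are SDs for levels and SEs for log2 fold changes, which understate changes of low genes. In simulated data for DSS against control, 189 of 200 genes changed by 2 on the log2 scale were recovered among 12578, with 12 false calls. The changed genes were drawn from those with a mean log2(FPKM + 1) above 2, and noise was drawn separately for each gene. The simulation therefore cannot speak for lower genes, smaller changes or shifts shared by the genes of a library. The members and lists were chosen with earlier results of these data known. All 30 members are named. From other lists, up to 4 called genes were named by size of change, or else the 2 with the highest mean FPKM. Promoters came from RefSeq and exons from GENCODE vM21.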

Additional observations from a re-analysis of the deposited data

Results flagged for a closer look

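In 3 of 88 groups of 4 libraries, 1 library stood far from the other 3 for a gene, and chance alone gives about 1 in 20. Nefl was at 3.48 FPKM in DSS replicate 2, against 0.621 to 1.05 in the other DSS libraries. Kit was at 11.2 FPKM in control replicate 1, against 26.5 to 28.5 in the other control libraries. Ano1 was at 14.8 FPKM in FGF1 replicate 3, against 5.66 to 6.94 in the other FGF1 libraries.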

How the results depend on the processing

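Percents in brackets here are the shares of all tested genes called in either direction, 12.3% in the main fit of DSS against control. The 6 genes called in that comparison became 3 with a pseudocount of 0.1 (11.9%) and 2 with no filter on low genes (7.36%). There were 2 with start-event values (6.76%), 2 with only the compared groups fitted (9.16%) and 2 without control 3 and FGF1 3 (7.45%). Only 1 was called without DSS 3 and DSS 4 (1.48%), and 0 with the smooth muscle covariate (0.231%). Leaving out 1 library gave 2 to 9, the most without DSS replicate 1 (15.8%), where Scg3 and Nefl lost their call and other genes gained one. It left 2 without control replicate 3 (6.23%) or 4 (5.83%) or without DSS replicate 3 (5.56%) or 4 (6.59%). Without FGF1 replicate 2, 3 were left (9.71%). Vip was called in 21 of 22 alternatives and Ano1 in 20, lost without DSS 3 and DSS 4 (adjusted p = 0.121) and with the covariate, while Cartpt, Syt1, Scg3 and Nefl lost their call in 16, 13, 18 and 12, beside the turned sign of Scg3 given below. Genes not called in the main fit of DSS against control also gained calls, all lower in DSS. Scg2 and Ret gained one in 3 alternatives, Ncam1 and Tubb3 in 2, and Tac1, Elavl4, Nefm, Sox10 and Kit in 1. The cause of these losses and gains was not tested. The numbers of the labels did not pair the libraries (3 of 12 same-numbered pairs correlated above 0.1). A replicate block left 2 genes called in DSS against control (8.17%) and 0 in the others. FGF1 against DSS had 0 in every alternative. In FGF1 against control, leaving out 1 library gave 0 to 1, with Vip called without FGF1 replicate 3 (0.665%).

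Signs turned in few cases in DSS against control: Scg3 with start-event values (0.12), Vipr2 with start-event values (0.49), and Rtn1 (0.14), Prph (0.0449) and Hand2 (0.19) with the covariate. Uchl1 turned with start-event values (-1.82), the covariate (-0.65), and without control replicate 1 (-0.08), control replicate 4 (-0.32), DSS replicate 2 (-0.28) or DSS replicate 4 (-0.13), and in FGF1 against DSS without FGF1 replicate 3 (0.27), with or without control 3. Over the libraries left out, Uchl1 ran between -0.32 and 0.47 in DSS against control and between -1.19 and 0.27 in FGF1 against DSS. In FGF1 against control, Scg2 turned with start-event values (0.0587), Kit with the covariate (0.0302), and Uchl1 without FGF1 replicate 3 (0.30) or without control 3 and FGF1 3 (0.74), with a range of -1.16 to 0.30 over the libraries left out. In FGF1 against DSS, 24 of 27 genes changed sign in some alternative, so no direction is given for them. Median-of-ratios scaling moved the median of all genes by 0.12 in DSS against control and the called genes to 982 lower and 677 higher, against 1269 lower and 280 higher as deposited, with 5 of the genes still called. Without Uchl1 in the sum, chosen after seeing the data, Vip came to 21.7% in FGF1, 12.7% in DSS and 41.7% in control libraries. Among the 18 named list genes, 10 calls were lost without control replicate 3, 11 without control replicate 4, 11 without DSS replicate 3 and 10 without DSS replicate 4, against at most 6 without any other library. FPKM gives no depth, so low genes such as Npy and Chat are not resolved.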
